A study of Homo sapiens with 18 samples.

Results

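Matrix metalloproteinases (MMPs) are zinc proteases that cut collagens, other matrix proteins and cell surface proteins, and tissue inhibitors of metalloproteinases (TIMPs) bind and block their active sites. The genes described here are 7 MMPs, the collagenase MMP1, the stromelysin MMP3, the gelatinases MMP2 and MMP9 and the membrane-type enzymes MMP14, MMP15 and MMP16, and the 3 inhibitors TIMP1, TIMP2 and TIMP3. They were chosen by symbol, which gave 10 of the 46218 gene IDs in the deposited gene table, and all 10 passed the filter on low counts. Their mRNA was measured by RNA-seq in 6 groups of 3 libraries: T98G, LN229 and U118-MG, all human glioblastoma cell lines, each with a guide against DDA1 (sgDDA1) and with a control guide (sgCon). DDA1 encodes a small protein associated with cullin-RING ubiquitin ligases, and the culture medium of all groups was DMEM with 10% FBS. The labels do not say whether guide-treated cells were pools or clones, and nothing states that the 3 libraries of a group are independent cultures. The p-values thus reflect only how far such libraries differ, and that difference may be technical.

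Most MMPs are made as inactive precursors that are kept latent by a propeptide. MMP14 sits in the cell membrane, where it cuts the precursor of MMP2 in a complex bridged by TIMP2, and MMP3 can activate the precursors of MMP1 and MMP9. TIMP3 differs from the other inhibitors in binding to the matrix and in blocking several ADAM and ADAMTS proteases as well. In gliomas these enzymes are studied for their part in invasion through brain matrix. The values below are mRNA levels and hold no measure of protein, of latency or of protease activity.

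Library totals were 44.9 M to 55.1 M counts, and 94.1 M in LN229 sgCon 1. On the CPM scale used below (counts per 1 M of the TMM-scaled library total, M standing for mega), 3 counts equalled 0.0294 to 0.0809 CPM. DDA1 had 34.2, 32.1 and 34.8 CPM in LN229 sgDDA1 cells, against 47.6, 49.2 and 48.9 CPM in LN229 sgCon cells, a log2 fold change of -0.53 (adjusted p = 0.000642). In T98G DDA1 had 56.6, 59.8 and 55.6 CPM in sgDDA1 cells, against 61.4, 68.3 and 67.1 CPM in sgCon cells, which did not pass the threshold (log2 fold change -0.20, adjusted p = 0.197). As labelled, U118-MG had 66.3, 59.0 and 63.8 CPM of DDA1 with sgDDA1, against 71.8, 56.0 and 50.1 CPM with sgCon (0.09, adjusted p = 0.450). The U118-MG sgCon libraries, by their label, stood nearer to LN229 than to U118-MG sgDDA1. Across genes they correlated with the LN229 group means at 0.942 to 0.976 and with the U118-MG sgDDA1 mean at 0.806 to 0.825, and SOX2, a neural stem cell factor, averaged 17.6 CPM in them, 17.8 and 18.6 CPM in the LN229 groups and 0.374 CPM in U118-MG sgDDA1. Other glioma markers did not all match LN229. In the same order of groups, SLC1A3 averaged 64.4, 64.7, 99.7 and 26.8 CPM and CD44 61.7, 3.85, 3.42 and 1559 CPM. NES averaged 70.1, 57, 9.97 and 69.8 CPM, and OLIG2, at 10.3 CPM in these controls, was above every other group. U118-MG values are given as labelled, and the guide is compared within T98G and within LN229. Mitochondrial genes took 5.59% to 5.68% of counts in T98G sgDDA1 libraries and 4.2% to 4.53% in T98G sgCon libraries, and 6.2% to 6.43% in LN229 sgDDA1 libraries and 5.16% to 5.75% in LN229 sgCon libraries; their part in the results was not tested. The astrocyte marker GFAP averaged at most 3.02 CPM in any group and the leukocyte marker PTPRC at most 0.215 CPM.

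Levels of the 10 genes differed widely between lines. U118-MG sgDDA1 cells had the highest levels of 7 of them, T98G cells the highest levels of MMP9 and TIMP3, and the libraries labelled U118-MG sgCon the highest level of MMP15. On the deposited FPKM scale, which divides counts by gene length and library total and so allows levels of different genes to be compared, MMP2 led in U118-MG sgDDA1 with 488 ± 22.4 FPKM (SD, n = 3), rank 39 of the 46218 genes. TIMP3 led in T98G with 268 ± 8.11 FPKM in sgDDA1 cells and 146 ± 4.06 FPKM in sgCon cells, and TIMP1 led in LN229 with 22.3 ± 1.01 FPKM in sgDDA1 cells and 17.3 ± 1.68 FPKM in sgCon cells.

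**Figure D1:**
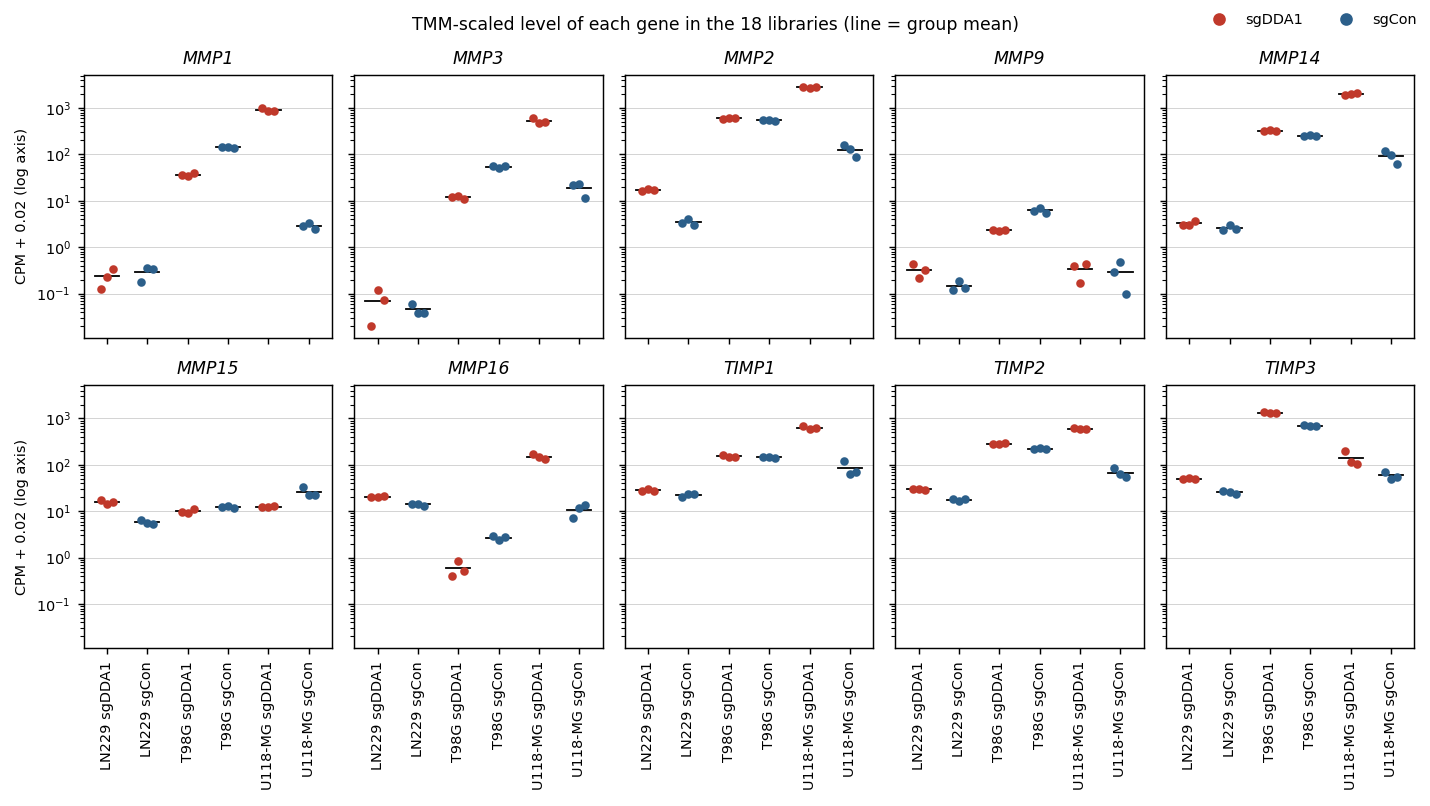
CPM of each gene (log axis, with 0.02 added so that libraries with no count can be drawn) in the 3 libraries of each group, with the group mean as a bar, sgDDA1 in red and sgCon in blue. MMP1 and MMP3 span from under 1 CPM in LN229 to 921 and 532 CPM in U118-MG sgDDA1, while MMP15 stays between 5.30 and 33.2 CPM.

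In T98G, DDA1 guide libraries had less mRNA for the secreted collagenase and stromelysin, for MMP9 and for MMP16, and more for TIMP2 and TIMP3. Of the 10 genes, 2 were higher and 4 lower at an adjusted p under 0.05, against a background of 11.7% of all 24418 genes tested higher and 10.4% lower (22.1% in all). The median log2 fold change was -0.10 over the 10 genes and 0.00 over all genes. In LN229, 6 of the 10 were higher with the DDA1 guide and 0 lower, against 19.2% of all genes higher and 10.2% lower (29.4% in all), with a median of 0.78 over the 10 genes and 0.07 over all genes. Tests used edgeR's quasi-likelihood F-test over all 18 libraries with Benjamini-Hochberg adjustment over all genes. The count of genes called was 7185 in LN229 and 5402 in T98G, and 10898 and 9154 when U118-MG sgCon 1 alone was left out of the fit. U118-MG sgCon 1 differed more from its replicates than any other library did.

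MMP1 (chr11:102789920-102798160, minus strand, GRCh38), the interstitial collagenase, had 36.8, 34.6 and 38.9 CPM in T98G sgDDA1 cells, against 146, 143 and 138 CPM in T98G sgCon cells. All sgDDA1 libraries lay below all sgCon libraries. The log2 fold change was -1.95 ± 0.13 (SE; adjusted p = 1.54e-09), which is 3.87-fold lower. In bulk RNA, fewer cells expressing a gene and less RNA per cell cannot be told apart, here and below. In LN229 MMP1 was close to the detection limit, with 6, 13 and 18 counts in sgDDA1 libraries, against 16, 18 and 17 counts in sgCon libraries. These ranges overlapped, and the difference did not pass the threshold (log2 fold change -0.21, adjusted p = 0.691). The T98G difference minus the LN229 difference was -1.74 ± 0.38 on the log2 scale (adjusted p = 0.00267). Of the 10 genes, 5 passed this test of the difference, all 5 lower in T98G, against a background of 6.41% of genes higher and 10.9% lower (17.3% in all).

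MMP3 (chr11:102835801-102843803, minus strand), stromelysin-1, a neighbour of MMP1 in the same gene cluster, had 12.1, 12.7 and 10.9 CPM in T98G sgDDA1 cells, against 56.3, 51.1 and 55.0 CPM in T98G sgCon cells. Here too all sgDDA1 libraries lay below all sgCon libraries, by a log2 fold change of -2.19 ± 0.19 (adjusted p = 6.11e-08), or 4.56-fold. In LN229 it had 0, 6 and 3 counts in sgDDA1 libraries, against 4, 1 and 1 counts in sgCon libraries, so no fold is given. MMP3 kept a near constant ratio to MMP1 in T98G: on the FPKM scale MMP3 over MMP1 was 0.480 ± 0.0641 in sgDDA1 cells and 0.563 ± 0.0320 in sgCon cells (SD, n = 3 each), with overlapping ranges of 0.413 to 0.541 and 0.528 to 0.591. The pseudogene WTAPP1 overlaps both genes on the other strand and had at most 0.431 CPM in any library.

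Between lines under the control guide, 9 of the 10 genes were higher in T98G than in LN229 and 1 lower, against 33.4% of genes higher and 34.3% lower (67.7% in all). MMP1 averaged 142 ± 4.24 CPM in T98G sgCon cells and 0.270 ± 0.0986 CPM in LN229 sgCon cells (SD, n = 3 each), a 567-fold difference (adjusted p = 1.09e-18). MMP3 averaged 54.2 ± 2.72 CPM in T98G sgCon cells and 0.0255 ± 0.0119 CPM in LN229 sgCon cells, the second from 1 to 4 counts a library, and it passed the test (adjusted p = 4.14e-16) with a fitted fold that depends on the prior count. With the DDA1 guide, 7 of the 10 genes were higher in U118-MG than in T98G and 2 lower, against 29% of genes higher and 29.6% lower (58.6% in all). Both of these proteases were among the higher ones. MMP1 had 1020, 861 and 880 CPM in U118-MG sgDDA1 cells, 25.1-fold the T98G sgDDA1 level (adjusted p = 2.2e-16). MMP3 had 618, 474 and 504 CPM in U118-MG sgDDA1 cells, 44.8-fold the T98G sgDDA1 level (adjusted p = 7.22e-15). For both genes the order was therefore U118-MG sgDDA1, T98G and LN229, with the LN229 groups not separated from each other.

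MMP2 (chr16:55389700-55506691, plus strand), gelatinase A, showed a different pattern between guides from MMP1 and MMP3: it was much higher with the DDA1 guide in LN229 and near its control level in T98G. It had 16.3, 18.0 and 17.4 CPM in LN229 sgDDA1 cells, against 3.26, 4.02 and 3.06 CPM in LN229 sgCon cells. No library of the groups overlapped, and the log2 fold change was 2.32 ± 0.15 (adjusted p = 1.78e-09), or 5.01-fold. In T98G it had 578, 600 and 624 CPM in sgDDA1 cells, against 541, 547 and 526 CPM in sgCon cells. These groups did not overlap either, but the log2 fold change of 0.16 ± 0.14 did not pass the threshold (adjusted p = 0.450). It passed in a fit of the 12 T98G and LN229 libraries alone (0.16 ± 0.04, adjusted p = 0.00143). The T98G difference minus the LN229 difference was -2.16 ± 0.20 on the log2 scale (adjusted p = 1.93e-07).

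In LN229 the rise of MMP2 was within a low range of levels. MMP2 averaged 538 ± 10.6 CPM in T98G sgCon cells and 3.45 ± 0.507 CPM in LN229 sgCon cells, a 156-fold difference (adjusted p = 4.06e-18), and with the DDA1 guide it averaged 601 ± 22.8 CPM in T98G and 17.2 ± 0.883 CPM in LN229. Against LN229 sgDDA1, U118-MG sgDDA1 had 8 of the 10 genes higher and 1 lower, beside 34.8% of all genes higher and 37.7% lower (72.5% in all). U118-MG sgDDA1 cells had 2908, 2672 and 2795 CPM of MMP2, 4.65-fold the T98G sgDDA1 level (adjusted p = 1.91e-11) and 162-fold the LN229 sgDDA1 level (adjusted p = 2.27e-18). MMP1, which U118-MG sgDDA1 libraries held at 861 CPM or more, stayed at or under 0.323 CPM in the LN229 sgDDA1 libraries, in which MMP2 was above its control level. On the FPKM scale, MMP2 over TIMP2 was 0.688 ± 0.0469 in LN229 sgDDA1 cells and 0.234 ± 0.0506 in LN229 sgCon cells, and 2.53 ± 0.0509 in T98G sgDDA1 cells and 2.92 ± 0.0442 in T98G sgCon cells (SD, n = 3 each), so that the ratio was higher with the DDA1 guide in LN229 and lower in T98G. The groups did not overlap in either line.

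MMP9 (chr20:46008908-46016561, plus strand), gelatinase B, was scarce in every group and highest in T98G. It had 2.34, 2.23 and 2.38 CPM in T98G sgDDA1 cells, against 6.06, 7.03 and 5.54 CPM in T98G sgCon cells, with no overlap. The log2 fold change was -1.42 ± 0.28 (adjusted p = 0.000874). LN229 had 23, 12 and 17 counts in sgDDA1 libraries, against 10, 9 and 6 counts in sgCon libraries. The log2 fold change of 1.30 ± 0.48 passed narrowly (adjusted p = 0.0451), and the call was lost without sgCon 1 (0.187), sgCon 3 (0.105), sgDDA1 1 (0.193) or sgDDA1 3 (0.0950), with counts halved (0.0513) and with the replicate number as a block (0.0568). The difference between the lines was -2.72 ± 0.55 (adjusted p = 0.00139). MMP9 averaged 6.21 ± 0.753 CPM in T98G sgCon cells and 0.126 ± 0.0380 CPM in LN229 sgCon cells (50.4-fold, adjusted p = 3.79e-11), and unlike the other gelatinase it was lower in U118-MG sgDDA1 cells, at 0.311 ± 0.139 CPM, than in T98G sgDDA1 cells, at 2.32 ± 0.0796 CPM (7.42-fold lower, adjusted p = 9.5e-07). In the order of levels, U118-MG sgDDA1, LN229 sgDDA1, U118-MG sgCon and LN229 sgCon each overlapped with the next. The antisense gene SLC12A5-AS1 overlaps MMP9 and had up to 0.713 CPM, which is as high as MMP9 itself outside T98G. The group in which it reached this level is not given here. The low MMP9 values are uncertain where counting ignored strand.

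**Figure D2:**
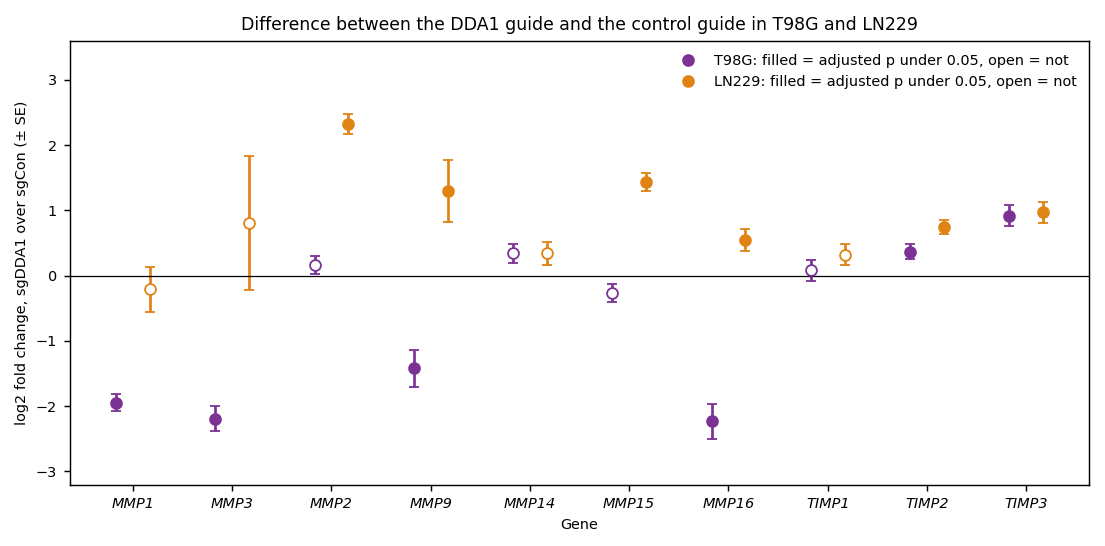
Log2 fold change of sgDDA1 over sgCon, with its standard error, for each gene in T98G (purple) and LN229 (orange), filled where the adjusted p was under 0.05. MMP1, MMP3, MMP9 and MMP16 lie at -1.42 to -2.23 in T98G, MMP2 and MMP15 at 2.32 and 1.44 in LN229, and TIMP3 near 1 in both.

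The membrane-type enzymes did not move together. MMP14 (chr14:22836557-22849027, plus strand), also named MT1-MMP, the activator of the MMP2 precursor, had 323, 328 and 318 CPM in T98G sgDDA1 cells, against 248, 260 and 255 CPM in T98G sgCon cells. The groups did not overlap, and the log2 fold change of 0.34 ± 0.14 missed the threshold (adjusted p = 0.0901). In LN229 MMP14 had 3.02, 3.04 and 3.65 CPM in sgDDA1 cells, against 2.31, 2.93 and 2.49 CPM in sgCon cells, a log2 fold change of 0.34 ± 0.17 (adjusted p = 0.155). In the 12 T98G and LN229 libraries alone both passed, at an adjusted p of 9.78e-09 in T98G and 0.00187 in LN229, and the T98G call also passed without U118-MG sgCon 1 alone (0.00171). The difference between the lines was 0.00 (adjusted p = 1).

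MMP14 followed the same order of lines as MMP2. It averaged 255 ± 6.19 CPM in T98G sgCon cells and 2.58 ± 0.320 CPM in LN229 sgCon cells (99.4-fold, adjusted p = 1.93e-17), and U118-MG sgDDA1 cells had 1930, 2033 and 2071 CPM, 6.23-fold the T98G sgDDA1 level (adjusted p = 2.63e-12). On the FPKM scale MMP14 over TIMP2 was 4.10 ± 0.244 in U118-MG sgDDA1 cells, 1.38 ± 0.0442 in T98G sgDDA1 cells and 0.132 ± 0.0189 in LN229 sgDDA1 cells (SD, n = 3 each). MMP14 thus exceeded TIMP2 per length in U118-MG sgDDA1 and T98G and was well below it in LN229.

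MMP15 (chr16:58025566-58046901, plus strand), also named MT2-MMP, had 17.3, 14.1 and 15.8 CPM in LN229 sgDDA1 cells, against 6.47, 5.57 and 5.30 CPM in LN229 sgCon cells. The groups were well apart, with a log2 fold change of 1.44 ± 0.14 (adjusted p = 2.51e-07), or 2.71-fold. In T98G it had 9.62, 9.34 and 11.2 CPM in sgDDA1 cells, against 12.2, 12.7 and 11.5 CPM in sgCon cells, with no overlap and a log2 fold change of -0.27 ± 0.14 that did not pass (adjusted p = 0.191). It passed in the 12 T98G and LN229 libraries alone (0.0228) and without U118-MG sgCon 1 alone (0.0281). Between the lines the guide differences were apart by -1.71 ± 0.20 (T98G minus LN229, log2 scale, adjusted p = 3.21e-06). MMP15 had the smallest difference of the 10 genes between T98G and LN229 under the control guide: it averaged 12.1 ± 0.633 CPM in T98G sgCon cells and 5.78 ± 0.615 CPM in LN229 sgCon cells (2.09-fold, adjusted p = 1.36e-06). In U118-MG sgDDA1 cells it had 12.1, 12.5 and 12.7 CPM, all above the T98G sgDDA1 libraries, with a log2 fold change of 0.30 that missed the threshold (adjusted p = 0.0740). That difference passed with DESeq2 (0.0377), with DESeq2 size factors (0.0427), without the U118-MG controls (0.00536), without U118-MG sgCon 1 alone (0.00826) and without T98G sgDDA1 3 (0.0489). Against LN229 sgDDA1 the level was slightly lower (-0.34, adjusted p = 0.0335), a call lost without the filter on low counts (0.0512) and without any 1 of LN229 sgDDA1 1 or 3 or of the U118-MG sgDDA1 libraries (adjusted p 0.0612 to 0.135).

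MMP16 (chr8:88032009-88328025, minus strand), also named MT3-MMP, had 0.387, 0.822 and 0.501 CPM in T98G sgDDA1 cells, against 2.90, 2.38 and 2.75 CPM in T98G sgCon cells, which rest on 18 to 38 and 122 to 150 counts. The log2 fold change was -2.23 ± 0.27 (adjusted p = 3.35e-06), or 4.69-fold lower, with no overlap. An antisense gene across MMP16 had 0 to 1.42 CPM over all libraries, and its level in T98G is not given here. The T98G value of MMP16 is thus uncertain too where counting ignored strand. LN229 showed 20.4, 20.4 and 20.8 CPM in sgDDA1 cells, against 14.5, 14.6 and 12.9 CPM in sgCon cells, with a log2 fold change of 0.55 ± 0.17 (adjusted p = 0.0177). That call was lost without LN229 sgCon 3 (0.0772) and without LN229 sgDDA1 3 (0.0519). The difference between the lines was -2.78 ± 0.32 (adjusted p = 2.3e-06).

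MMP16 was the only gene of the 10 that was lower in T98G than in LN229 under the control guide. It averaged 2.67 ± 0.269 CPM in T98G sgCon cells and 14.0 ± 0.914 CPM in LN229 sgCon cells (5.23-fold lower, adjusted p = 6.65e-10). U118-MG sgDDA1 cells had 171, 146 and 136 CPM, which was 264-fold the T98G sgDDA1 level (adjusted p = 1.5e-16) and 7.34-fold the LN229 sgDDA1 level (adjusted p = 5.89e-12).

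The start regions of the related enzymes MMP14 and MMP15 are shown for their values in LN229. There MMP15 was 2.71-fold higher with the DDA1 guide, and MMP14 did not pass with all libraries in the fit. The guide differences of these genes were not tested against each other. Each sequence is the 250 bases before the gene start as RefSeq gives it (GRCh38.p14, plus strand), at chr14:22836335-22836584 for MMP14 and chr16:58025504-58025753 for MMP15. Capitals mark matches on either strand to the GC box, which reads GGGCGG on 1 strand and CCGCCC on the other, and to the CCAAT box, which reads ATTGG on the other strand.
MMP14: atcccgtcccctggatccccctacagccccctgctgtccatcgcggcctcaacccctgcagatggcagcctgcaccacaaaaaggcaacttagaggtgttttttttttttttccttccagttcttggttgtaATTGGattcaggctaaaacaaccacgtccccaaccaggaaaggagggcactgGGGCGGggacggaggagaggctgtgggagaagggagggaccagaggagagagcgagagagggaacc
MMP15: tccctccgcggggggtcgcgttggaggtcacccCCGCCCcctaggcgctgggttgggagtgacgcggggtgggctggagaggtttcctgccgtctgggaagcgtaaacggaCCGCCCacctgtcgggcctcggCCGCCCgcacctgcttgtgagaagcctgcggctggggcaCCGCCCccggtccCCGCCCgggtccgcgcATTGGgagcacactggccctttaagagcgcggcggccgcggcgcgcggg
MMP14 held 1 GC box and 1 CCAAT box, and MMP15 held 5 GC boxes and 1 CCAAT box. At least 1 GC box stood in 42.6% and a CCAAT box in 32% of 35116 promoters of the same length. Only exact matches were searched. Neither sequence held the AP-1 motif TGANTCA, which is known from the promoters of several secreted MMPs and stood in 6.57% of promoters, or TATAAA, which stood in 10.7%.

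Of the inhibitors, TIMP3 rose with the DDA1 guide in both lines and TIMP2 rose too, while TIMP1 did not pass. TIMP3 (chr22:32801701-32863043, plus strand), the matrix-bound inhibitor, had 1370, 1292 and 1321 CPM in T98G sgDDA1 cells, against 723, 693 and 685 CPM in T98G sgCon cells. The groups lay far apart, with a log2 fold change of 0.92 ± 0.16 (adjusted p = 0.000246), or 1.90-fold. In LN229 it had 49.2, 50.9 and 50.2 CPM in sgDDA1 cells, against 27.3, 25.4 and 23.9 CPM in sgCon cells, a log2 fold change of 0.97 ± 0.16 (adjusted p = 0.000133), or 1.96-fold. The T98G and LN229 differences differed by -0.05 ± 0.23 on the log2 scale, which did not pass the test (adjusted p = 0.946). Both calls held under all alternatives examined for them, including each left-out library of the groups compared and U118-MG sgCon 1 left out.

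TIMP3 had its own order of lines. It averaged 700 ± 20 CPM in T98G sgCon cells and 25.5 ± 1.69 CPM in LN229 sgCon cells (27.4-fold, adjusted p = 3.67e-15). U118-MG sgDDA1 cells had 195, 117 and 104 CPM, 9.58-fold below T98G sgDDA1 (adjusted p = 9.52e-13), although most of the other genes were higher there. SYN3, on the other strand across TIMP3, had 0.444 to 5.99 CPM, and the use of strand in counting is not stated in the sources at hand.

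TIMP2 (chr17:78852977-78925387, minus strand), which inhibits MMP2 and also takes part in its activation, had 280, 282 and 291 CPM in T98G sgDDA1 cells, against 218, 227 and 217 CPM in T98G sgCon cells. The log2 fold change was 0.37 ± 0.11 (adjusted p = 0.0199), with no overlap, and the call was lost without T98G sgCon 1 or 3 or T98G sgDDA1 2 or 3 (adjusted p 0.0524 to 0.0670). In LN229 it had 30.7, 30.4 and 28.9 CPM in sgDDA1 cells, against 18.6, 16.5 and 18.3 CPM in sgCon cells, a log2 fold change of 0.75 ± 0.11 (adjusted p = 3.9e-05). The difference between the lines, -0.38 ± 0.16, missed the threshold (adjusted p = 0.101) and passed in the 12 T98G and LN229 libraries alone (3.28e-06) and without U118-MG sgCon 1 alone (0.000187). TIMP2 averaged 221 ± 5.37 CPM in T98G sgCon cells and 17.8 ± 1.15 CPM in LN229 sgCon cells (12.4-fold, adjusted p = 3.34e-16), and U118-MG sgDDA1 cells had 615, 582 and 597 CPM, 2.10-fold the T98G sgDDA1 level (adjusted p = 4.13e-08).

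TIMP1 (chrX:47582313-47586789, plus strand), a secreted inhibitor with weak activity on MMP14, had 165, 150 and 145 CPM in T98G sgDDA1 cells, against 149, 146 and 140 CPM in T98G sgCon cells. The groups overlapped (log2 fold change 0.08, adjusted p = 0.801). In LN229 it had 27.4, 30.1 and 27.2 CPM in sgDDA1 cells, against 20.5, 23.5 and 23.9 CPM in sgCon cells, which did not overlap and did not pass (0.32 ± 0.16, adjusted p = 0.155). The LN229 difference passed in the 12 T98G and LN229 libraries alone (adjusted p = 1.01e-05) and without U118-MG sgCon 1 alone (0.000257). TIMP1 averaged 145 ± 4.60 CPM in T98G sgCon cells and 22.6 ± 1.86 CPM in LN229 sgCon cells (6.43-fold, adjusted p = 1.49e-11), and U118-MG sgDDA1 cells had 688, 590 and 617 CPM, 4.12-fold the T98G sgDDA1 level (adjusted p = 1.05e-09).

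The start regions of TIMP3 and TIMP1 are shown because, with all libraries in the fit, TIMP3 rose with the DDA1 guide in both lines and TIMP1 passed in neither. They are again the 250 bases before the gene start from RefSeq (GRCh38.p14, plus strand), at chr22:32801455-32801704 for TIMP3 and chrX:47582186-47582435 for TIMP1, with the same capitals.
TIMP3: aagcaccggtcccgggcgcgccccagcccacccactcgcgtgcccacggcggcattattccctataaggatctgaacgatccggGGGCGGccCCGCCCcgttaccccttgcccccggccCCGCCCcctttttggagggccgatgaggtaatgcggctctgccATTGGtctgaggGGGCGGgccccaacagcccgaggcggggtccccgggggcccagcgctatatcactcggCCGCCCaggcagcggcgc
TIMP1: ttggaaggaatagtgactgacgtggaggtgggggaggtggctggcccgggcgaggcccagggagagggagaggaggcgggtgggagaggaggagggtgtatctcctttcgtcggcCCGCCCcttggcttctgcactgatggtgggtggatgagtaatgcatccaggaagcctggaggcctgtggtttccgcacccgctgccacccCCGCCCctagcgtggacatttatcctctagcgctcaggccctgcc
TIMP3 held 5 GC boxes and 1 CCAAT box, and TIMP1 held 2 GC boxes and no CCAAT box. Neither held an exact match to the AP-1 motif or the TATA motif searched above. Inexact matches were not searched, and TGAGTAA in the TIMP1 sequence differs from TGANTCA by 1 base. The search thus cannot tell whether these sequences hold AP-1 sites. Promoter sequences were matched for 4 of the 10 genes. In all 4 the RefSeq start lies downstream of the GENCODE start given with each gene, so the last bases printed lie inside the gene as GENCODE draws it, and for MMP15 and TIMP1 this is a large part of the sequence.

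Per length, the makeup of these 10 genes differed between lines. The 7 MMPs summed to 11.5 ± 0.432 FPKM in LN229 sgDDA1 cells and 4.39 ± 0.251 FPKM in LN229 sgCon cells, to 205 ± 3.72 FPKM in T98G sgDDA1 cells and 246 ± 3.54 FPKM in T98G sgCon cells, and to 1371 ± 74.7 FPKM in U118-MG sgDDA1 cells (SD, n = 3 each). The 3 TIMPs summed to 40.9 ± 1.05 FPKM in LN229 sgDDA1 cells and 26.9 ± 1.36 FPKM in LN229 sgCon cells, to 414 ± 14.0 FPKM in T98G sgDDA1 cells and 280 ± 7.00 FPKM in T98G sgCon cells, and to 471 ± 41.2 FPKM in U118-MG sgDDA1 cells. The sum of these 3 TIMPs exceeded the sum of these 7 MMPs in LN229 and T98G, and was below it in U118-MG sgDDA1. The sums leave out other family members, of which MMP13 alone had 42.1 ± 1.21 FPKM in T98G sgDDA1 cells and 57.2 ± 2.91 FPKM in T98G sgCon cells, and with MMP13 added the MMP sum of T98G sgCon exceeds its TIMP sum.

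MMP2 made up 57.8% ± 0.990 of the MMP sum in T98G sgDDA1 cells and 44.6% ± 0.316 in T98G sgCon cells, and MMP1 made up 6.08% ± 0.318 in T98G sgDDA1 cells and 20.3% ± 0.372 in T98G sgCon cells. In LN229, MMP2 made up 36.6% ± 2.62 in sgDDA1 cells and 18.4% ± 1.68 in sgCon cells, while MMP15 made up 37.1% ± 3.15 in sgDDA1 cells and 34.4% ± 3.34 in sgCon cells. TIMP3 held 64.9% ± 0.494 of the TIMP sum in T98G sgDDA1 cells and 52.2% ± 0.526 in T98G sgCon cells, against 5.19% ± 1.39 in U118-MG sgDDA1 cells, where TIMP1 held 76.2% ± 0.527.

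**Figure D3:**
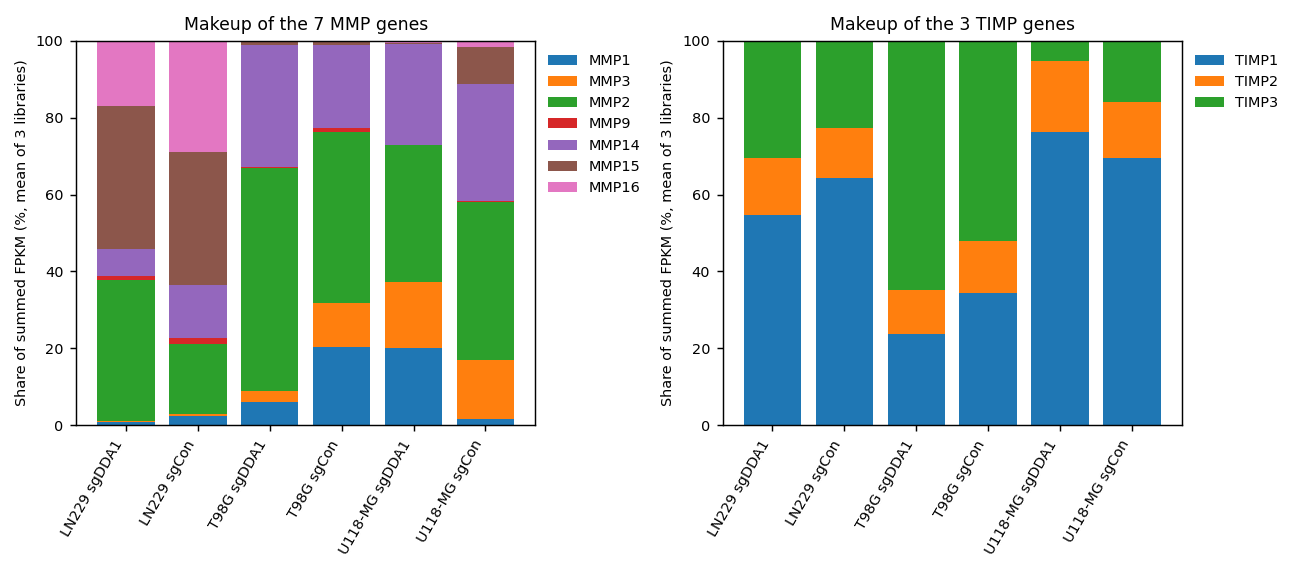
Share of each gene in the summed FPKM of the 7 MMPs (left) and of the 3 TIMPs (right), as the mean of 3 libraries per group. MMP1 and MMP3 fill more of the T98G sgCon bar than of the T98G sgDDA1 bar, MMP15 and MMP16 fill a large part of the LN229 bars, and TIMP3 fills 64.9% of the T98G sgDDA1 bar and 5.19% of the U118-MG sgDDA1 bar.

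As labelled, U118-MG sgDDA1 stood above U118-MG sgCon for 8 of the 10 genes and below it for MMP15, against a background of 35.3% of genes higher and 36.9% lower (72.2% in all). MMP1 had 1020, 861 and 880 CPM in U118-MG sgDDA1 libraries, against 2.87, 3.24 and 2.43 CPM in the libraries labelled U118-MG sgCon (log2 fold change 8.34 ± 0.18, adjusted p = 9.55e-19). MMP15 had 12.1, 12.5 and 12.7 CPM in U118-MG sgDDA1 libraries, against 33.2, 22.4 and 22.2 CPM in those labelled sgCon (-1.06 ± 0.14, adjusted p = 8.54e-07). MMP9 did not pass (0.22, adjusted p = 0.688). Since the control libraries resembled LN229, guide and line cannot be told apart in this comparison.

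Low levels of the U118-MG genes in those controls were uneven between members. A set of 162 genes with 20 CPM or more in U118-MG sgDDA1 and under 0.5 CPM in all LN229 libraries stood in U118-MG sgCon 1, 2 and 3 at a median of 3.58%, 4% and 2.89% of their U118-MG sgDDA1 level. MMP2 stood at 5.75%, 4.59% and 3.20% of its U118-MG sgDDA1 level, MMP14 at 5.74%, 4.91% and 3.12%, and MMP3 at 4.18%, 4.25% and 2.17%. MMP2 and MMP14 had 3.06 to 18 and 2.31 to 3.65 CPM in LN229 libraries, above the limit of that set. MMP16 (4.62% to 9.07%), TIMP2 (9.05% to 14%), TIMP1 (9.88% to 19.3%) and TIMP3 (36.6% to 51.8%) were above that limit in LN229 too. MMP1 stood lower, at 0.312%, 0.352% and 0.264%, under the lower quartile of the set in each library (1.93%, 2.97% and 2.08%). MMP1 and MMP3 meet the limits of the set and are themselves part of it. On the FPKM scale MMP3 over MMP1 was 0.851 ± 0.0415 in U118-MG sgDDA1 and 9.58 ± 2.30 in its labelled controls (SD, n = 3 each).

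**Figure D4:**
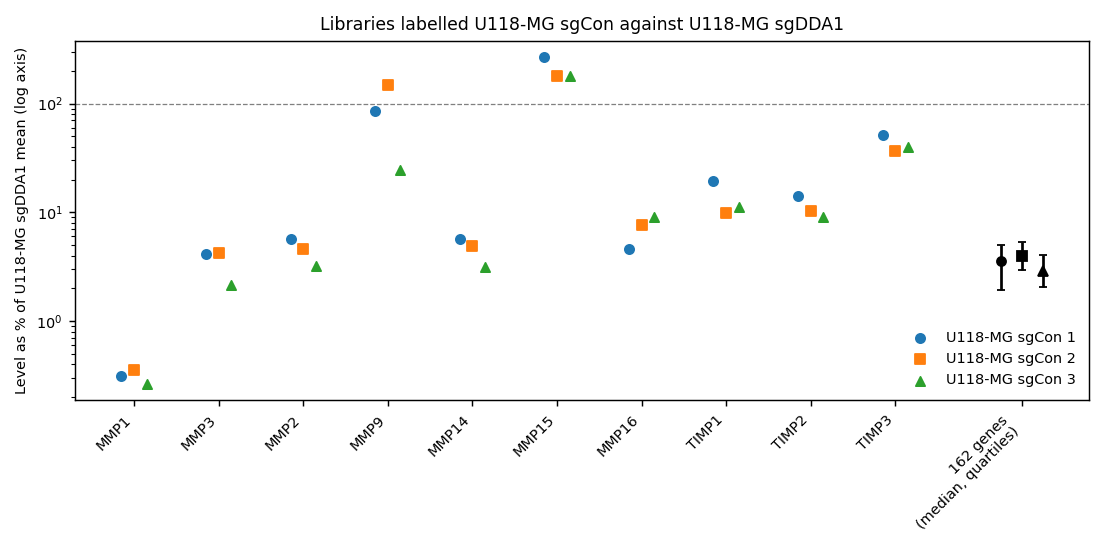
Level of each gene in the 3 libraries labelled U118-MG sgCon as a percentage of its U118-MG sgDDA1 mean (log axis, dashed line at equality), with the median and quartiles of 162 genes that were high in U118-MG sgDDA1 and near 0 in LN229 (black). MMP2, MMP3 and MMP14 lie near the medians of the 162 genes, which include MMP1 and MMP3. MMP1 lies below their lower quartiles at 0.264% to 0.352%, and MMP15 lies above equality.

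Among the 18 libraries, MMP1, MMP2, MMP3, MMP14, TIMP1 and TIMP2 were alike, with Pearson correlations of log2 CPM between 0.92 and 0.98 for every pair of them. MMP9 was most like TIMP3 (0.89), and MMP16 ran against both, at -0.68 with MMP9 and -0.67 with TIMP3. MMP15 correlated with no other member above 0.33. These values describe 18 libraries that fall into lines and share line and guide, so they carry no test. Genes outside the family with the highest correlation were VIM for MMP1 (0.993), KCNMA1 for MMP2 (0.997), ADAM12 for MMP3 (0.992), KCNN4 for MMP14 (0.997), SHMT2 for MMP15 (0.951), HMGA2 for MMP16 (0.990), PLIN3 for TIMP1 (0.996), NFIC for TIMP2 (0.998) and SSBP2 for TIMP3 (0.995). The second most alike were LINC01443 for MMP1 (0.991), EHD2 for MMP2 (0.996), CDH13 for MMP3 (0.990), LAPTM5 for MMP9 (0.963), SEMA5A for MMP14 (0.995), SYNGR3 for MMP15 (0.940), DOCK4 for MMP16 (0.988), CENPB for TIMP1 (0.995), TGFB1I1 for TIMP2 (0.996) and IFI6 for TIMP3 (0.989).

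Other genes of the system were counted against the shares over all genes given above, in T98G 11.7% higher and 10.4% lower. The counts are descriptions, and those for other MMPs lie near these shares. Of 13 tested pro-MMP activators and plasminogen system genes, 2 were higher and 6 lower with the DDA1 guide, among them the protease inhibitor SERPINE2 (log2 fold change -2.25) and tissue plasminogen activator PLAT (1.87). Of 10 other inhibitors 3 were higher and 3 lower, including TFPI2 (-2.65), the proteoglycan SPOCK1 (-2.32) and alpha-2-macroglobulin A2M (2.17). Of 22 transcription factors linked to MMP genes 8 were higher and 4 lower, with JUNB at -1.02, TFAP2A at 0.90 and JUND at 0.79, and a median log2 fold change of 0.00 over the list as over all genes. Of 12 tested other MMPs 2 were higher and 1 lower. MMP25 averaged 3.22 CPM in sgDDA1 cells and 1.11 CPM in sgCon cells (1.54), MMP11 only 0.293 CPM in sgDDA1 cells and 0.0929 CPM in sgCon cells, from 20 counts a library or fewer, and MMP7 0.128 CPM in sgDDA1 cells and 1.68 CPM in sgCon cells (-3.69). Of 10 docking and clearance genes 2 were higher and 4 lower, with CLDN1 at -2.08, TSPAN12 at 1.94 and the clearance receptor LRP1 at 1.20. Of 24 ADAM and ADAMTS genes 7 were higher and 7 lower, with ADAMTS6 at -2.04, ADAMTS5 at 1.76 and ADAM19 at -1.42, and of 18 matrix substrates 5 were higher and 6 lower, with COL3A1 at 3.27, LAMA5 at 1.31 and TNC at -1.23.

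In LN229, where 19.2% of all genes were higher and 10.2% lower, of 24 ADAM and ADAMTS genes 14 were higher and 0 lower, with ADAMTS14 at a log2 fold change of 2.23 (0.642 CPM in sgDDA1 cells and 0.142 CPM in sgCon cells), ADAMTS7 at 1.90 and ADAMTS10 at 1.65. Of 18 matrix substrates 12 were higher and 0 lower, with DCN at 3.20, COL3A1 at 2.74 and BCAN at 1.22. Of these, DCN averaged 0.593 CPM in sgDDA1 cells and 0.069 CPM in sgCon cells, and BCAN 0.545 CPM in sgDDA1 cells and 0.225 CPM in sgCon cells, so that both were scarce in this line. Other inhibitors gave 6 higher and 0 lower of 10, with PCOLCE at 1.60, SPOCK1 at 1.33 and A2M at 1.01 (0.654 CPM in sgDDA1 cells and 0.348 CPM in sgCon cells), and other MMPs 4 higher and 0 lower of 12, with MMP11 at 1.64 and MMP17 at 1.54. Of 13 activators and plasminogen system genes 4 were higher and 1 lower, with PLAU at 1.37, PLAT at 1.15 and PLAUR at 0.86, and of 10 docking and clearance genes 4 were higher and 0 lower, with LRP1 at 1.59, SDC1 at 1.35 and ITGB3 at 1.18. Transcription factors gave 7 higher and 4 lower of 22, with SNAI1 at 1.08, RUNX2 at 1.03 and NFKB1 at -0.92, and their median of 0.06 stood beside 0.07 over all genes. Of 9 fibroblast and pericyte markers 6 were higher and 0 lower in LN229, and their summed level was 68.1 to 73.4 CPM in sgDDA1 libraries and 44.8 to 48.2 CPM in sgCon libraries. In T98G 3 were higher and 0 lower, with sums of 508 to 532 CPM in sgDDA1 libraries and 567 to 588 CPM in sgCon libraries. In LN229, 8 of these markers averaged more in sgDDA1 cells, among them COL1A1 with 27.3 CPM in sgDDA1 cells and 12.8 CPM in sgCon cells, COL3A1 with 4.02 CPM in sgDDA1 cells and 0.604 CPM in sgCon cells and LUM with 0.733 CPM in sgDDA1 cells and 0.0316 CPM in sgCon cells. The other one, COL1A2, had 0.416 CPM in sgDDA1 cells and 0.718 CPM in sgCon cells (adjusted p = 0.151), and no marker was at 0 in all 3 libraries of a group. In U118-MG the sums of the same markers were 7346 to 9587 CPM in sgDDA1 libraries and 462 to 685 CPM in those labelled sgCon. All libraries come from glioblastoma cell lines, and these genes alone do not show that fibroblasts or pericytes were present. Their relation to the MMP and TIMP values was not tested.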

How the data were processed

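Total RNA of 18 libraries was sequenced. Per the submitters' processing notes, fastp 0.19.6, STAR 2.4.0, HTSeq 0.12.4, DESeq2 and GRCh38 were used, with no statement on strand in the sources at hand. The table deposited by the authors holds raw counts per gene, and the deposited FPKM values equal counts divided by gene length and library total, within 1% for 100.0% of genes. Coordinates come from GENCODE 29 (GRCh38) and promoter sequences from RefSeq.

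From the counts, genes were filtered with filterByExpr, scaled by TMM and tested in R 4.3.3 with edgeR 4.0.16 (quasi-likelihood F-test, 6 group means, 18 libraries, threshold 0.05 after Benjamini-Hochberg adjustment). CPM values are TMM-scaled. The scripts were tested on simulated data. In T98G, 56% of 1.5-fold, 84% of 2-fold, 94% of 4-fold and 100% of 8-fold changes set there were recovered. In that simulation the libraries labelled U118-MG sgCon were drawn at the U118-MG sgDDA1 level, unlike in the real data. Alternatives were DESeq2 1.42.0, DESeq2 size factors in edgeR, no filter, halved counts, a replicate block and the 12 LN229 and T98G libraries alone. Each library of the groups in a comparison was also left out in turn. From outside those groups only U118-MG sgCon 1 was left out. The 15 libraries other than those labelled U118-MG sgCon were chosen as an alternative after seeing the data. Counting error is limited by PCR copies, since the labels name no molecular identifiers. Between replicates, the chi-square per gene was 3.53 to 152.94, so no library was counted as a repeat of another. The values of 152.16 and 152.94 were those of U118-MG sgCon 1 against the other libraries of its group. All other pairs of replicates had 3.53 to 19.41.

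The members, the 7 other gene lists and 5 marker lists were chosen with earlier results of these data known. From each other list up to 3 genes per comparison are named, those with the largest absolute log2 fold change among called genes with a mean of at least 1 CPM over all libraries and no overlap between groups, and for each member the 2 genes of highest Pearson correlation of log2 CPM (prior count 2). MMP7, MMP13, SOX2, SLC1A3, CD44, NES, OLIG2, COL1A1, COL1A2, LUM, GFAP and PTPRC are named aside from this rule, with their values known. The fibroblast and pericyte marker RGS5 was not matched. Some genes that this rule names are not reported here.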

Additional observations from a re-analysis of the deposited data

Results flagged for a closer look

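For 5 of the 10 genes the difference between sgDDA1 and sgCon itself differed between T98G and LN229, by a test of the difference of differences in edgeR (adjusted over 24418 genes, of which 10.9% were lower in T98G by this test and 6.41% higher). All 5 were lower in T98G relative to LN229, on the log2 scale by -2.78 for MMP16, -2.72 for MMP9, -2.16 for MMP2, -1.74 for MMP1 and -1.71 for MMP15. For MMP16 and MMP9 the guide difference was negative in T98G (-2.23 and -1.42) and positive in LN229 (0.55 and 1.30), and each of these passed the test in its own line. The LN229 calls were fragile: that of MMP9 was lost in 4 of the fits with 1 library left out, with halved counts (adjusted p = 0.0513) and with the replicate block (0.0568), and that of MMP16 without LN229 sgCon 3 (0.0772) or LN229 sgDDA1 3 (0.0519). For MMP2 and MMP15 only the LN229 difference passed with all libraries in the fit, and for MMP1 only the T98G difference did. The MMP1 and MMP9 values in LN229 rest on 6 to 23 counts a library.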

How the results depend on the processing

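Of 990 values recomputed for the 10 genes, 922 kept their direction and side of the threshold, 31 gained the threshold, 18 lost it and 19 changed sign, none of these passing the test with all libraries. Sign changes were those of MMP14 in the difference between lines (0.00 with all libraries, and -0.03 with DESeq2, -0.03 with DESeq2 size factors, -6.9e-05 with the replicate block, -0.0047 with halved counts, -0.02 in the 12 libraries, -0.01 in the 15 libraries and -0.09 to 0.10 with 1 library left out), of MMP1 and MMP3 in LN229 (0.08 for MMP1 without sgDDA1 1, range -0.62 to 0.08, and -0.08 for MMP3 without sgDDA1 2, range -0.08 to 1.36), and of MMP9 in U118-MG sgDDA1 against its labelled control (-0.23 and -0.02, range -0.23 to 0.88) and against LN229 sgDDA1 (-0.21, -0.11 and -0.20, range -0.21 to 0.38). MMP3 in the difference between lines (-3.00, adjusted p = 0.072) passed with DESeq2 (-3.09, 0.00144), without the filter (0.00177) and in the 12 libraries (0.00265), but rests on 0 to 6 counts in LN229. Counts of genes called grew without the libraries labelled U118-MG: in LN229 from 7185 to 11632 in the 12 libraries and 10949 in the 15, in T98G from 5402 to 10013 and 9363, and in the difference between lines from 4227 to 9044 and 8257, where members called went from 5 to 8 and 8. With 1 library of the groups compared or U118-MG sgCon 1 left out, these counts ranged over 5267 to 10898, 3886 to 9154 and 3365 to 8065. The highest each time was without U118-MG sgCon 1, and other libraries from outside the groups compared were not examined in this way. Members called ranged over 4 to 7 in LN229, 5 to 8 in T98G and 5 to 7 in the difference. The cause of these shifts in the counts was not tested. Replicate numbers did not pair libraries (correlations of deviations -0.03 to 0.05). The replicate block gave 6941, 5235 and 4114 genes called and 5, 6 and 5 members, and it ended the MMP9 call in LN229 (adjusted p = 0.0568) and no other call among the 10 genes. Depth limits MMP1, MMP3 and MMP9 in LN229, where 3 counts equal 0.0294 to 0.0564 CPM.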

Other observations

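MMP1 and MMP3 lie in a cluster of 9 MMP genes over 435 kb of chromosome 11 (chr11:102520508-102955734, GRCh38), chosen here after its values were seen, and the cluster's genes did not share a pattern across lines. MMP13, a collagenase at one end, averaged 128 ± 3.61 CPM in T98G sgDDA1 cells and 169 ± 8.31 CPM in T98G sgCon cells (SD, n = 3 each; log2 fold change -0.40 ± 0.16, adjusted p = 0.0758), and at most 0.451 CPM in the other groups, including U118-MG sgDDA1, where MMP1 had 921 CPM. MMP12, the macrophage elastase, averaged 9.45 ± 0.608 CPM in U118-MG sgDDA1 cells and at most 0.290 CPM elsewhere. MMP7, matrilysin at the other end, averaged 0.128 ± 0.0749 CPM in T98G sgDDA1 cells and 1.68 ± 0.239 CPM in T98G sgCon cells (-3.69 ± 0.58, adjusted p = 8.81e-05). MMP10, the stromelysin next to MMP1, averaged 1.03 ± 0.363 CPM in U118-MG sgDDA1 cells and at most 0.425 CPM elsewhere. MMP8, MMP20 and MMP27 were under 0.1 CPM on average in every group. All 9 values in LN229 averaged under 0.5 CPM with either guide.

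TIMP4, the remaining inhibitor of the family, also averaged more with the DDA1 guide in T98G, at 8.34 ± 0.171 CPM in sgDDA1 cells and 2.75 ± 0.419 CPM in sgCon cells (log2 fold change 1.60 ± 0.32, adjusted p = 0.00103), and did not pass in LN229 (1.22 ± 0.70, adjusted p = 0.214). RECK, a membrane-anchored inhibitor of MMPs, was higher in LN229 sgDDA1 than in LN229 sgCon cells (0.56 ± 0.12, adjusted p = 0.00125) and did not pass in T98G (0.17 ± 0.12, adjusted p = 0.331). ETS1, a transcription factor with known sites in several MMP promoters, was higher with the DDA1 guide in T98G (0.42 ± 0.08, adjusted p = 0.000349) and in LN229 (0.64 ± 0.08, adjusted p = 3.56e-06). These 3 genes were singled out after their values were seen.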
